A study of Mus musculus with 18 samples.

Results

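The 42 genes described here encode the machinery that moves the water channel aquaporin-2 between intracellular vesicles and the apical membrane of kidney collecting duct principal cells. They were chosen by name, as symbols of SNAREs, Munc18 proteins, Rab GTPases, myosins, annexins, the endocytic coat, retromer and ERM proteins, and not by their measured values. All 42 were among the 24111 genes of the deposited count table, with Stxbp3 listed there under its older symbol Stxbp3a. RNA was measured in mpkCCD cells, an immortalised mouse cortical collecting duct line, which is a single cultured line and not tissue. Confluent cells on permeable supports were kept without serum for 24 h, and then either received 0.1 nM dDAVP, a vasopressin analog that acts on the V2 receptor, for 24 h (9 libraries), or remained without it for the same time (9 control libraries). All cells carried the same serum-free step, and no label says whether libraries of a group came from separate cultures, so p-values measure the spread between these libraries, which may be technical.

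Vasopressin signals through the V2 receptor and cyclic AMP, and within minutes vesicles that carry aquaporin-2 fuse with the apical membrane. SNARE proteins and their Munc18 partners carry out the fusion, Rab GTPases and myosin motors bring the vesicles to the membrane and back, and clathrin, the AP-2 adaptor and dynamin take the channel up again. Trafficking of aquaporin-2 is regulated largely by phosphorylation of existing proteins, while vasopressin also raises transcription of Aqp2 over hours. The present data bear on RNA levels of the machinery after 24 h and not on its activity.

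Several members are close paralogs, and the question which of them the cells used rests on whether 50 base reads can tell them apart. The first 150 coding bases of Rab11a (chromosome 9) and Rab11b (chromosome 17), and 150 bases near the start of Rab5a (chromosome 17) and Rab5c (chromosome 11), are shown because these pairs changed rank between libraries, as described below. They are from GENCODE M21 transcripts on GRCm38, 5' to 3' along the coding strand, and capitals mark the bases that differ within the pair.

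Rab11a: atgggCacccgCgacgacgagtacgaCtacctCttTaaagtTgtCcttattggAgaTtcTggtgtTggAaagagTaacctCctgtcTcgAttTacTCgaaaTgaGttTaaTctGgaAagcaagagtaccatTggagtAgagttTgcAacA
Rab11b: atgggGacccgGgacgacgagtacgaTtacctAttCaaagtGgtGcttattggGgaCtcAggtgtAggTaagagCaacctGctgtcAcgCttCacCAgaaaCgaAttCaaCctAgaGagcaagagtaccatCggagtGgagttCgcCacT
Rab5a: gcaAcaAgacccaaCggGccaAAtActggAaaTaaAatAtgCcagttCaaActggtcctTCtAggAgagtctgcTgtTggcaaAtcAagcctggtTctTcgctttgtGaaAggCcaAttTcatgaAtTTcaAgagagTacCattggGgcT
Rab5c: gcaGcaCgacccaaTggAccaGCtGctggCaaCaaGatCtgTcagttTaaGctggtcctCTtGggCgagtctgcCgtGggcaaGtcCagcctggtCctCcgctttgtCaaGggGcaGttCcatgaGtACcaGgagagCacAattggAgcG

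The Rab11 pair differed at 30 of these 150 bases and the Rab5 pair at 37. Over the whole coding sequence Rab11a and Rab11b were 75.7% identical over 651 aligned bases, and Rab5a and Rab5c were 74.3% identical over 647. The longest run of identical bases was 14 in the Rab11 pair and 22 in the Rab5 pair, both shorter than a 50 base read. Other genes also share windows with these transcripts: of all 50 base windows, 14.0% in Rab11b (mainly in a processed pseudogene), 2.54% in Rab11a, 9.06% in Rab5a and 0% in Rab5c also occurred in a transcript of another gene, so the counts of Rab11b and Rab5a are uncertain to that extent. The GC content of the stretches shown was 44% in Rab11a, 51.3% in Rab11b, 44.7% in Rab5a and 58.0% in Rab5c. In GRCm38.p6, Rab11a lies at chr9:64715300-64737756, Rab11b at chr17:33742484-33760486, Rab5a at chr17:53479234-53507678 and Rab5c at chr11:100715003-100738215.

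Library totals ranged from 22.2 M to 106 M counts. All values below labelled CPM are library-scaled counts (CPM, after TMM scaling), and FPKM values, which also divide by gene length, are used wherever levels of different genes are compared. Aqp2, the textbook target of dDAVP, averaged 1277 ± 1071 CPM in dDAVP libraries and 54.8 ± 75.0 CPM in control libraries (SD, n = 9 each). In replicates 1 to 3 Aqp2 averaged 2037 ± 861 CPM in dDAVP and 23.9 ± 3.78 CPM in control libraries. In replicates 4 to 6 it averaged 751 ± 513 CPM in dDAVP and 40.6 ± 11.5 CPM in control libraries. The groups overlapped in replicates 7 to 9, with 2764, 175 and 193 CPM in dDAVP, against 10.9, 37.3 and 252 CPM in control. Each of 11 principal cell markers had a count above 0 in at least 1 library, but Elf5 and Aqp4 stayed below 3 counts throughout. Elf5 reached 0.0451 CPM, in control 3, and Aqp4 0.0564 CPM, in dDAVP 3. Aqp3 averaged 1.22 CPM in dDAVP and 0.480 CPM in control libraries. Scnn1b averaged 1.35 CPM in dDAVP and 4.32 CPM in control libraries, and Scnn1g 1.18 CPM in dDAVP and 1.22 CPM in control libraries. Markers of other cell types were low in most libraries: the summed level of 7 intercalated cell genes reached 22.9 CPM in dDAVP and 14.4 CPM in control libraries, of 5 proximal tubule genes 10.9 CPM in dDAVP and 8.23 CPM in control, of 4 leukocyte genes 13.8 CPM in dDAVP and 8.26 CPM in control, and of 4 endothelial genes 0.12 CPM in dDAVP and 0 CPM in control libraries, with 3 of the 4 at 0 everywhere. The summed level of 4 thick limb and distal tubule genes had a median of 0.12 CPM in dDAVP and 0.0417 CPM in control libraries, but was 45.7 CPM in dDAVP 2 and 37 CPM in dDAVP 3, against 0 to 0.0611 CPM in the control libraries of replicates 1 to 3; dDAVP 1 had 0.0458 CPM. Their part in the results was not tested. Libraries with replicate numbers 1 to 3, 4 to 6 and 7 to 9 differed strongly from each other in both groups, and the labels do not say why. The test of dDAVP against control was therefore also run within each of these 3 sets. Many levels below are given only as means over all 9 libraries of a group, which mix the sets.

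None of the 42 genes differed between dDAVP and control at an adjusted p under 0.05 (edgeR quasi-likelihood test, Benjamini-Hochberg over all 10121 genes tested). This held without covariates, where 0% of all genes passed, and with the set of replicate numbers as a term, where 0.079% passed. Without covariates Aqp2 did not pass either, so in that fit the count of 0 members is not a result particular to them. At an unadjusted p under 0.05 there were 0 members without the set term, where 2.15% of all genes passed, and 3 with it, which is 7.14% of the members beside 6.03% of all genes. DESeq2, limma voom and limma on FPKM values also called 0 members in either comparison. Voom with sample weights called 0 members without the set term and 1 with it, where 1.17% of all genes passed. For the other fits the share of all genes is not given, so their counts of 0 are not a result particular to the members. With the set term, 22 of the 42 fold changes were positive and their median was 0.019 on the log2 scale, against 52.2% positive and a median of 0.024 for all genes tested. Standard errors of the members' log2 fold changes had a median of 0.377 and ranged from 0.233 to 0.7. In these bulk samples, fewer cells of a type and less RNA per cell cannot be told apart.

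**Figure D1:**
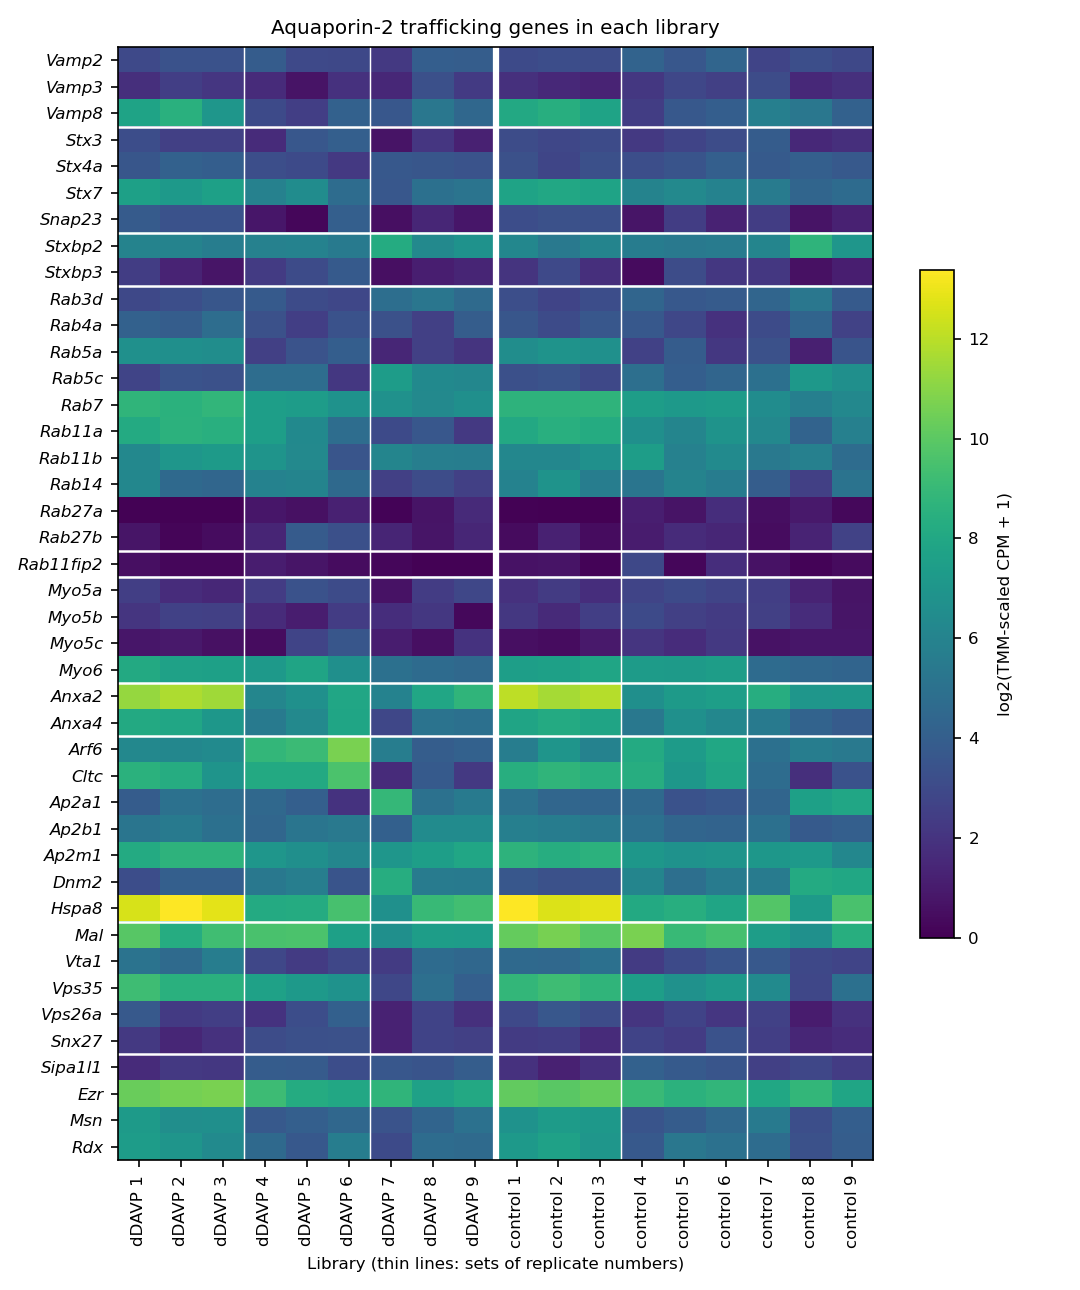
Heat map of log2(TMM-scaled CPM + 1) for each of the 42 genes (rows, grouped by role) in each of 9 dDAVP libraries (left) and 9 control libraries (right), with thin lines between replicates 1 to 3, 4 to 6 and 7 to 9. Hspa8, Anxa2, Ezr and Mal are bright in most libraries, and Hspa8 and Anxa2 step down between replicates 1 to 3 and the later sets in both groups.

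**Figure D2:**
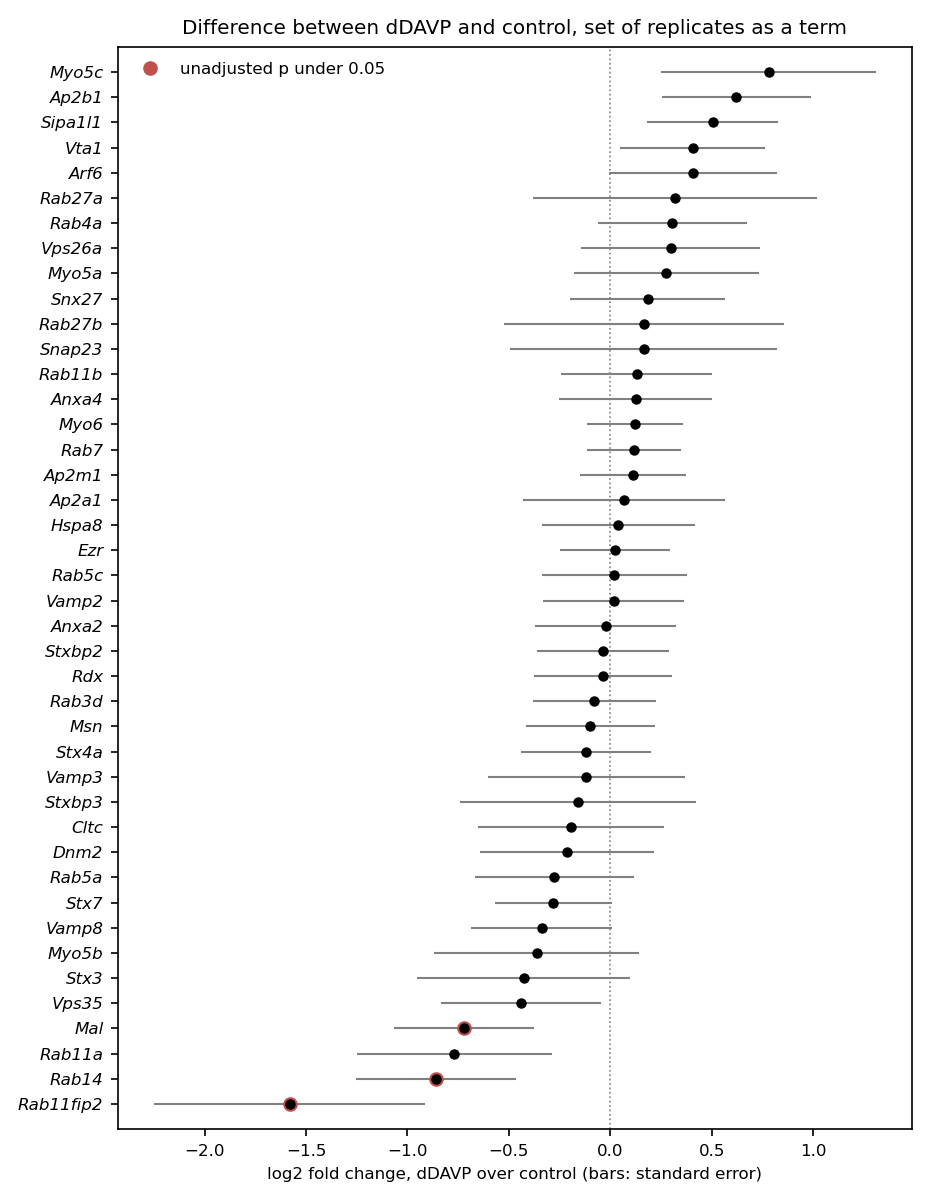
Log2 fold change of dDAVP over control for each of the 42 genes, with the set of replicate numbers as a term, and its standard error as a bar. Red points mark the 3 genes with an unadjusted p under 0.05, Rab11fip2, Rab14 and Mal, which all lie below 0 and did not pass adjustment.

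Among the vesicle SNAREs, which sit on the aquaporin-2 vesicle, Vamp8 had the highest mean FPKM in both groups. Vamp2, the SNARE classically found on these vesicles, had a far lower mean. Vamp8 averaged 106 ± 116 FPKM in dDAVP libraries and 122 ± 125 FPKM in control libraries (SD, n = 9 each). Vamp2 averaged 6.67 ± 7.84 FPKM in dDAVP and 4.70 ± 2.06 FPKM in control libraries, and Vamp3, a close relative of Vamp2, averaged 2.69 ± 4.14 FPKM in dDAVP and 2.21 ± 2.53 FPKM in control libraries. Vamp8 made up 97.9% ± 1.17 of the summed FPKM of the 3 genes in dDAVP and 98.7% ± 0.240 in control libraries of replicates 1 to 3 (SD, n = 3 each). In replicates 4 to 6 its share was 66.5% ± 15.1 in dDAVP and 54.4% ± 15.9 in control libraries, and in replicates 7 to 9 it was 80.9% ± 4.62 in dDAVP and 88.9% ± 4.41 in control libraries. Vamp8 was therefore the leading paralog by mean share in each set and group, and its lead was smallest in replicates 4 to 6. In control 4, of that set, Vamp2 led with 53.35%, against 36.05% for Vamp8. A share within a library does not depend on the scaling between libraries. In CPM, Vamp8 had a lowest, median and highest value of 4.50, 21.2 and 367 in dDAVP and 4.44, 38.7 and 339 in control libraries, ranges that overlap almost fully. With the set term the log2 fold change was -0.34 for Vamp8, -0.12 for Vamp3 and 0.017 for Vamp2.

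Of the target SNAREs, Stx7, a syntaxin of late endosomes, was highest, with 33.9 ± 23.7 FPKM in dDAVP and 39.2 ± 27.4 FPKM in control libraries. Stx4a, the mouse syntaxin 4 gene whose product resides in the plasma membrane, averaged 9.99 ± 7.85 FPKM in dDAVP and 9.37 ± 6.14 FPKM in control libraries, and Stx3, an apical membrane syntaxin, averaged 1.68 ± 1.23 FPKM in dDAVP and 2.52 ± 3.06 FPKM in control libraries. Stx4a was the steadiest of all 42 genes across the sets, with set means that spanned 0.42 on the log2 scale. Its 3 libraries of replicates 1 to 3 had 11.1, 16.8 and 15 CPM in dDAVP, against 9.17, 5.85 and 8.74 CPM in control. In replicates 7 to 9 they had 11.6, 11 and 9.61 CPM in dDAVP, against 12.7, 15.7 and 12.6 CPM in control. The 2 groups thus did not overlap in either set, but dDAVP was above control in the first and below it in the second; the interaction of treatment with set had an unadjusted p of 0.0696 and an adjusted p of 0.81. Snap23, the partner of these syntaxins in the fusion complex, averaged 2.00 ± 1.92 FPKM in dDAVP and 2.01 ± 1.60 FPKM in control libraries. The Munc18 genes differed in abundance: Stxbp2 (Munc18b), the epithelial form, averaged 49.6 ± 53.6 FPKM in dDAVP and 46.0 ± 62.1 FPKM in control libraries, and Stxbp3 (Munc18c) 1.31 ± 0.925 FPKM in dDAVP and 1.49 ± 1.36 FPKM in control libraries. Of the 50 base windows of the Stxbp3 transcript, 21.2% also occurred in its pseudogene, so its counts are uncertain.

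Rab7, which marks late endosomes, had the highest level of the 10 Rab genes, at 99.9 ± 53.2 FPKM in dDAVP and 88.4 ± 47.2 FPKM in control libraries; 16.2% of its windows occurred in a pseudogene. Rab11a, which marks the recycling endosome through which aquaporin-2 returns, averaged 50.1 ± 49.8 FPKM in dDAVP and 57.4 ± 37.8 FPKM in control libraries. Rab5c averaged 52.0 ± 68.9 FPKM in dDAVP and 31.3 ± 40.7 FPKM in control libraries. Rab7 lay above Rab11a in every library, whereas the place of Rab5c changed. In control 1 Rab7 had 126, Rab11a 78.6 and Rab5c 3.72 FPKM, and in control 8 they had 32.9, 10.4 and 119 FPKM. Rab11a and Rab11b share the recycling endosome, and Rab11a led by mean share except in dDAVP libraries of replicates 7 to 9. The Rab11a share of their summed FPKM was 88.6% ± 2.78 in dDAVP and 90.4% ± 2.11 in control libraries of replicates 1 to 3, and 79.7% ± 6.70 in dDAVP and 70.9% ± 10.2 in control libraries of replicates 4 to 6. In replicates 7 to 9 it was 24.6% ± 10.5 in dDAVP and 71.0% ± 22.2 in control libraries (SD, n = 3 each). Rab5a and Rab5c, both of early endosomes, exchanged rank in both groups. Rab5a held 89.0% ± 2.82 of their sum in dDAVP and 89.4% ± 1.87 in control libraries of replicates 1 to 3. In replicates 4 to 6 it held 34.7% ± 34.2 in dDAVP and 19.8% ± 16.2 in control libraries, with 73.8% in dDAVP 6 alone, and in replicates 7 to 9 it held 2.39% ± 1.59 in dDAVP and 8.02% ± 8.39 in control libraries. For the Rab5 pair the leading paralog therefore differed between sets in both groups. For the Rab11 pair it differed between sets, by mean share, in dDAVP but not in control libraries. Rab11b also led in control 8, of replicates 7 to 9, where the Rab11a share was 45.4%.

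**Figure D3:**
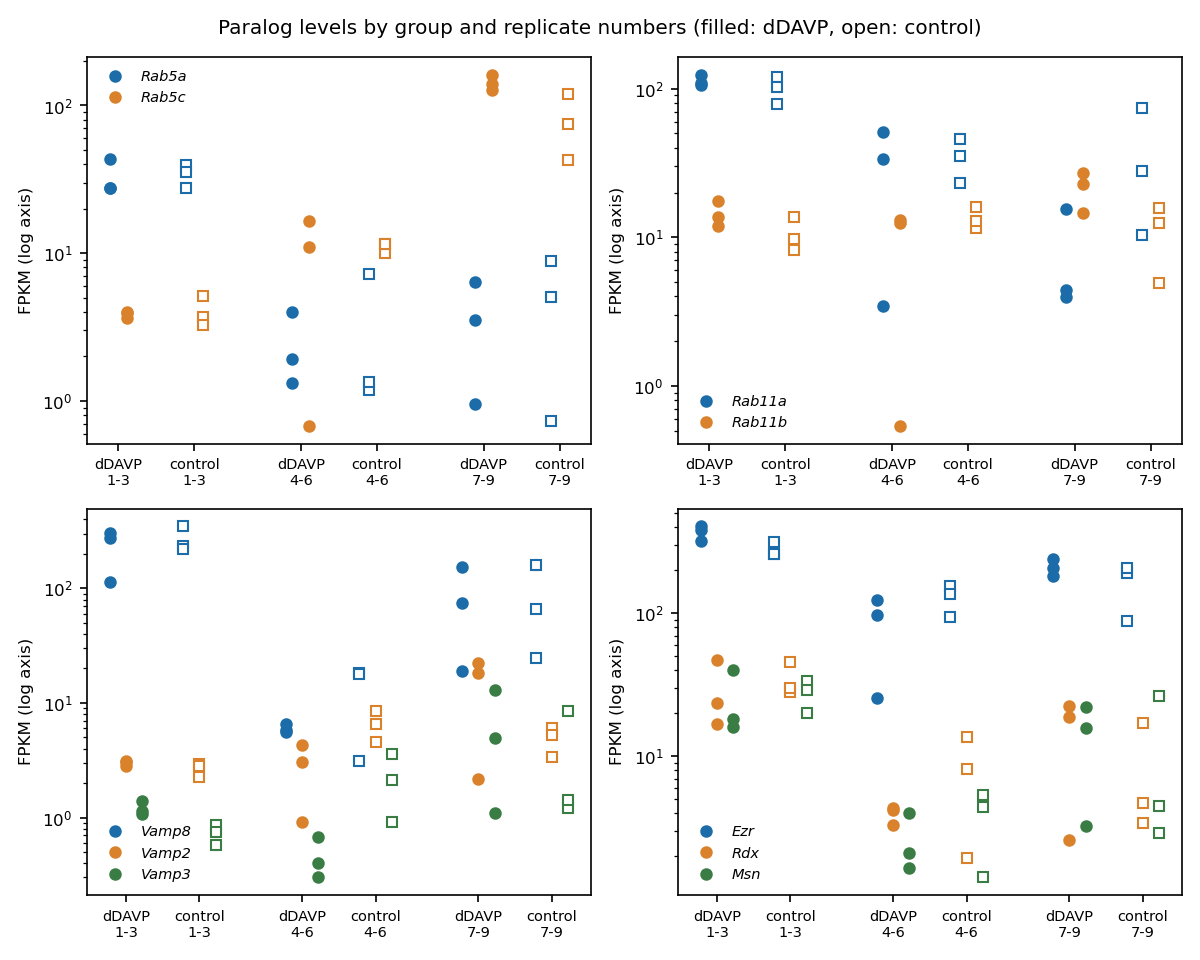
FPKM (log axis) of Rab5a and Rab5c, Rab11a and Rab11b, Vamp8, Vamp2 and Vamp3, and Ezr, Rdx and Msn in each library, by replicates 1 to 3, 4 to 6 and 7 to 9, with filled points for dDAVP and open squares for control. Rab5a lies above Rab5c in replicates 1 to 3 and below it in replicates 7 to 9 in all libraries of both groups, while Ezr lies above Rdx and Msn throughout.

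Rab14, which acts between the trans-Golgi network and endosomes and lies at chr2:35180205-35201120, had the most negative log2 fold change of the 10 Rab genes with the set term. Its libraries of replicates 1 to 3 had 72.8, 22.8 and 20.4 CPM in dDAVP, against 59.3, 117 and 50.2 CPM in control. Those of replicates 4 to 6 had 60.0, 63.9 and 22.8 CPM in dDAVP, against 36.2, 61.8 and 48.0 CPM in control, and those of replicates 7 to 9 had 4.71, 7.69 and 4.77 CPM in dDAVP, against 14.2, 4.89 and 33.4 CPM in control. The groups overlapped in each set. The log2 fold change was -0.86 (SE 0.39), with an unadjusted p of 0.0396 and an adjusted p of 0.815 by edgeR. It was negative in all 33 alternative settings of that comparison, with adjusted p-values of 0.178 to 1. These settings reuse the same 18 libraries, so the constant sign is not independent support. Within replicates 4 to 6 the log2 fold change of Rab14 was negative in 11 of 13 settings and reached 0.22. Rab11fip2, an effector that links Rab11 to myosin Vb, had the largest negative value, -1.58 (SE 0.67; adjusted p 0.815), but its mean was only 0.0560 ± 0.0487 FPKM in dDAVP and 0.181 ± 0.218 FPKM in control libraries, and control 4 alone had 6.37 CPM beside a control median of 0.550 CPM. Rab27a and Rab27b, which tether secretory vesicles, were also low, at 0.330 ± 0.585 and 0.418 ± 0.568 FPKM in dDAVP, against 0.215 ± 0.235 and 0.239 ± 0.256 FPKM in control libraries. Rab3d and Rab4a, of secretory granules and of fast recycling, averaged 7.24 ± 10.0 and 9.73 ± 7.84 FPKM in dDAVP, against 4.80 ± 4.59 and 6.91 ± 5.00 FPKM in control libraries.

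Among the myosins, Myo6, which moves toward the minus end of actin filaments and serves endocytosis, averaged 15.1 ± 10.5 FPKM in dDAVP and 14.3 ± 8.44 FPKM in control libraries. The 3 class V myosins, which carry recycling vesicles outward, were each below 1 FPKM on average. Myo5b, which in the collecting duct works with Rab11 and its effector, averaged 0.475 ± 0.476 FPKM in dDAVP and 0.607 ± 0.464 FPKM in control libraries. Myo5a averaged 0.502 ± 0.518 FPKM in dDAVP and 0.354 ± 0.289 FPKM in control libraries. Myo5c averaged 0.358 ± 0.400 FPKM in dDAVP and 0.204 ± 0.158 FPKM in control libraries. By mean share of their summed FPKM, Myo5b led in each set and group except dDAVP libraries of replicates 4 to 6. There it held 25.0% ± 17.1, against 38.2% ± 14.6 for Myo5a. In replicates 1 to 3 Myo5b held 65.0% ± 13.8 in dDAVP and 57.8% ± 12.9 in control libraries. Myo5c held 10.4% ± 2.41 and 9.87% ± 2.79 there. In dDAVP libraries of replicates 7 to 9 the Myo5b share was 40.2% ± 32.3, so its lead is uncertain. Myo5c had the largest positive log2 fold change of the members with the set term, 0.78 (SE 0.53), with an unadjusted p of 0.154. The annexins, which bind membranes in the presence of calcium, were abundant. Anxa2, which also helps organise apical membrane domains, averaged 722 ± 733 FPKM in dDAVP and 799 ± 945 FPKM in control libraries, and Anxa4 49.3 ± 38.6 FPKM in dDAVP and 51.5 ± 38.9 FPKM in control libraries. Anxa2 levels differed widely between the sets: over both groups it averaged 3305 CPM in replicates 1 to 3, 142 CPM in replicates 4 to 6 and 219 CPM in replicates 7 to 9, while its log2 fold change with the set term was -0.023 (SE 0.35).

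In the endocytic arm Hspa8, the chaperone that uncoats clathrin vesicles, was the most abundant of all 42 genes, at 1176 ± 1312 FPKM in dDAVP and 1172 ± 1343 FPKM in control libraries. Its counts are uncertain, since 74.8% of its 50 base windows also occurred in transcripts of other genes, and the same holds for 42.5% of those of Ap2m1. The clathrin heavy chain Cltc averaged 25.2 ± 20.7 FPKM in dDAVP and 26.8 ± 19.4 FPKM in control libraries, and dynamin-2 (Dnm2), which severs the vesicle neck, 25.7 ± 39.4 FPKM in dDAVP and 30.1 ± 41.1 FPKM in control libraries. The subunits of the AP-2 adaptor were unequal, with Ap2m1 at 92.7 ± 75.2, Ap2a1 at 30.6 ± 59.9 and Ap2b1 at 14.1 ± 19.3 FPKM in dDAVP libraries, against 67.1 ± 33.5, 22.1 ± 32.9 and 5.51 ± 3.11 FPKM in control libraries. Ap2b1 had the second largest positive log2 fold change, 0.62 (SE 0.37; unadjusted p 0.106), which came to -0.12 with sample weights. In replicates 7 to 9 it had 16, 88.4 and 86.3 CPM in dDAVP, against 29.2, 12.9 and 15.4 CPM in control, and in replicates 1 to 3 it had 35.6, 43.0 and 30.2 CPM in dDAVP, against 52.9, 47.8 and 40.1 CPM in control. Arf6, a small GTPase of endocytosis and membrane recycling, had 457, 565 and 1649.6 CPM in dDAVP libraries of replicates 4 to 6, against 295, 163 and 246 CPM in control libraries. The groups did not overlap in that set, but overlapped in replicates 1 to 3, with 74.3, 71.1 and 82.7 CPM in dDAVP, against 49.7, 126 and 60.2 CPM in control, and in replicates 7 to 9, with 50.1, 14.6 and 16.6 CPM in dDAVP, against 29.4, 49.3 and 42.2 CPM in control.

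Among the sorting genes, Mal was the most abundant. It encodes a small protein of lipid rafts that in kidney cells binds aquaporin-2 and slows its internalisation, and lies at chr2:127633226-127656695. Mal averaged 166 ± 108 FPKM in dDAVP and 246 ± 124 FPKM in control libraries. Its libraries of replicates 1 to 3 had 963, 307 and 621 CPM in dDAVP, against 1208, 1580.0 and 953 CPM in control. The values of replicates 4 to 6 were 747, 773 and 196 CPM in dDAVP, against 1631, 521 and 681 CPM in control, and those of replicates 7 to 9 were 99.7, 176 and 168 CPM in dDAVP, against 176, 103 and 329 CPM in control. The dDAVP mean was below the control mean in each set, although the groups overlapped in each. The log2 fold change with the set term was -0.72 (SE 0.34), with an unadjusted p of 0.0476 and an adjusted p of 0.816 by edgeR. It was negative in all 33 alternative settings, from -1.08 to -0.43, which reuse the same 18 libraries and are not independent support. It passed adjustment in 1 of them, limma voom with sample weights, with -1.08 (SE 0.24) and an adjusted p of 0.0178. In that fit 1.17% of all genes passed. Over these settings the adjusted p ranged from 0.0178 to 1. Within replicates 7 to 9 the log2 fold change of Mal was negative in 11 of 13 settings and reached 0.31. Retromer, the coat that returns cargo from endosomes, was represented by Vps35 at 53.3 ± 55.9 FPKM in dDAVP and 61.2 ± 49.9 FPKM in control libraries and by Vps26a at 2.11 ± 1.69 FPKM in dDAVP and 1.73 ± 1.12 FPKM in control libraries. Its cargo adaptor Snx27 averaged 1.05 ± 0.971 FPKM in dDAVP and 0.761 ± 0.529 FPKM in control libraries, and Vta1, which acts in sorting to the lysosome, 19.7 ± 20.6 FPKM in dDAVP and 10.1 ± 6.44 FPKM in control libraries. With the set term, the unadjusted p of these 4 genes stayed above 0.05.

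The ERM proteins tie actin to the cell membrane, and of them Ezr, the apical form in epithelia, held the largest share in every library. Ezr averaged 221 ± 130 FPKM in dDAVP and 189 ± 78.4 FPKM in control libraries. Msn averaged 13.8 ± 12.7 FPKM in dDAVP and 14.2 ± 12.9 FPKM in control libraries, and Rdx 15.9 ± 14.5 FPKM in dDAVP and 17.0 ± 14.9 FPKM in control libraries. The Ezr share of the 3 genes was 87.6% ± 4.75 in dDAVP and 81.7% ± 4.46 in control libraries of replicates 1 to 3 (SD, n = 3 each). The mean share was 89.7% in dDAVP and 92.3% in control libraries of replicates 4 to 6, and 88.9% in dDAVP and 89.6% in control libraries of replicates 7 to 9. Ezr thus led in each set, whereas the order of Rdx and Msn was not the same in all of them: in control libraries of replicates 1 to 3 their shares were 10.2% ± 2.89 and 8.07% ± 1.73, and in those of replicates 7 to 9 they were 4.60% ± 2.85 and 5.78% ± 5.10, which lie within each other's spread. Sipa1l1, a GTPase-activating protein for Rap1 that belongs to the actin-linked group, averaged 1.73 ± 1.83 FPKM in dDAVP and 0.943 ± 0.660 FPKM in control libraries.

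Within the sets, the comparison of dDAVP with control again gave 0 members at an adjusted p under 0.05 by edgeR. In replicates 1 to 3 0.456% of all genes passed, and in replicates 4 to 6 and 7 to 9 0% did. Aqp2 therefore did not pass in replicates 4 to 6 or 7 to 9 either. DESeq2 and limma voom called 0 members as well, and their shares of all genes are not given here. Rab27a, Rab27b and Rab11fip2 were too low to be tested in replicates 1 to 3, which left 39 members. The unadjusted p was under 0.05 for 3 of 39 members in replicates 1 to 3 (10.5% of all genes), 2 of 42 in replicates 4 to 6 (4.61%) and 1 of 42 in replicates 7 to 9 (5.19%). These were Stx4a (0.78, SE 0.28), Rab4a (0.87, SE 0.30) and Mal (-1.02, SE 0.39) in the first set, Arf6 (1.93, SE 0.69) and Rab27b (2.17, SE 0.95) in the second and Rab11a (-2.79, SE 0.82) in the third, as log2 fold changes. No member appeared in more than 1 set. Leaving out dDAVP 1 in replicates 1 to 3 gave 3 members past adjustment, Mal at -1.57, Rab14 at -1.96 and Stxbp3 at -2.04, with adjusted p-values of 0.0235, 0.018 and 0.0488. These are 7.69% of the 39 members tested, beside 8.31% of all genes in the same fit. In that set dDAVP 1 had the highest level of Mal, Rab14 and Stxbp3 among the dDAVP libraries. The calls then rest on dDAVP 2 and dDAVP 3, in which 3 of the 4 thick limb and distal tubule markers were above 0: Umod had 34.2 and 27.2 CPM, Slc12a3 10.6 and 8.91 CPM, and Slc12a1 0.847 and 0.846 CPM, while Pvalb was at 0. In the control libraries of the set Umod, Slc12a1 and Pvalb were at 0 and Slc12a3 reached 0.0611 CPM. The summed level of 7 intercalated cell genes was 14.4 CPM in dDAVP 2, 11.6 CPM in dDAVP 3 and 4.35 CPM in dDAVP 1. It was 1.79 to 2.43 CPM in the control libraries of the set. In dDAVP 2 and dDAVP 3 it came mainly from Atp6v1b1 (7.26 and 6.03 CPM), Atp6v0a4 (5.81 and 4.06 CPM) and Aqp6 (1.33 and 1.35 CPM). Slc26a4, Foxi1 and Kit were at 0 in both, and Slc4a1 had 0 and 0.113 CPM. Outside the set the sum reached 22.9 CPM in dDAVP 7 and 14.4 CPM in control 8. The part of these markers in the result was not tested.

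Rab11a had the smallest interaction p of the members. In replicates 7 to 9 it had 7.10, 11.4 and 3.74 CPM in dDAVP, against 74.8, 18.1 and 56.7 CPM in control, which do not overlap. In replicates 1 to 3 it had 295, 391 and 353 CPM in dDAVP, against 267, 342 and 297 CPM in control, and in replicates 4 to 6 it had 182, 80.5 and 26.2 CPM in dDAVP, against 98.9, 67.1 and 115 CPM in control. The log2 fold changes were 0.12 (SE 0.22) in replicates 1 to 3, -0.033 (SE 0.61) in replicates 4 to 6 and -2.79 (SE 0.82; unadjusted p 0.00443, adjusted p 0.82) in replicates 7 to 9. The interaction of treatment with set had an unadjusted p of 0.00471 and an adjusted p of 0.435 by edgeR, and an adjusted p of 0.0478 by DESeq2, which passed 0.899% of all genes, with a range of 0.0478 to 0.908 over its 23 alternative settings. Across all members, the interaction passed adjustment for 0 of 42 by edgeR (0% of all genes) and an unadjusted p under 0.05 for 3 (6.63% of all genes), namely Rab11a, Arf6 and Ap2b1.

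**Figure D4:**
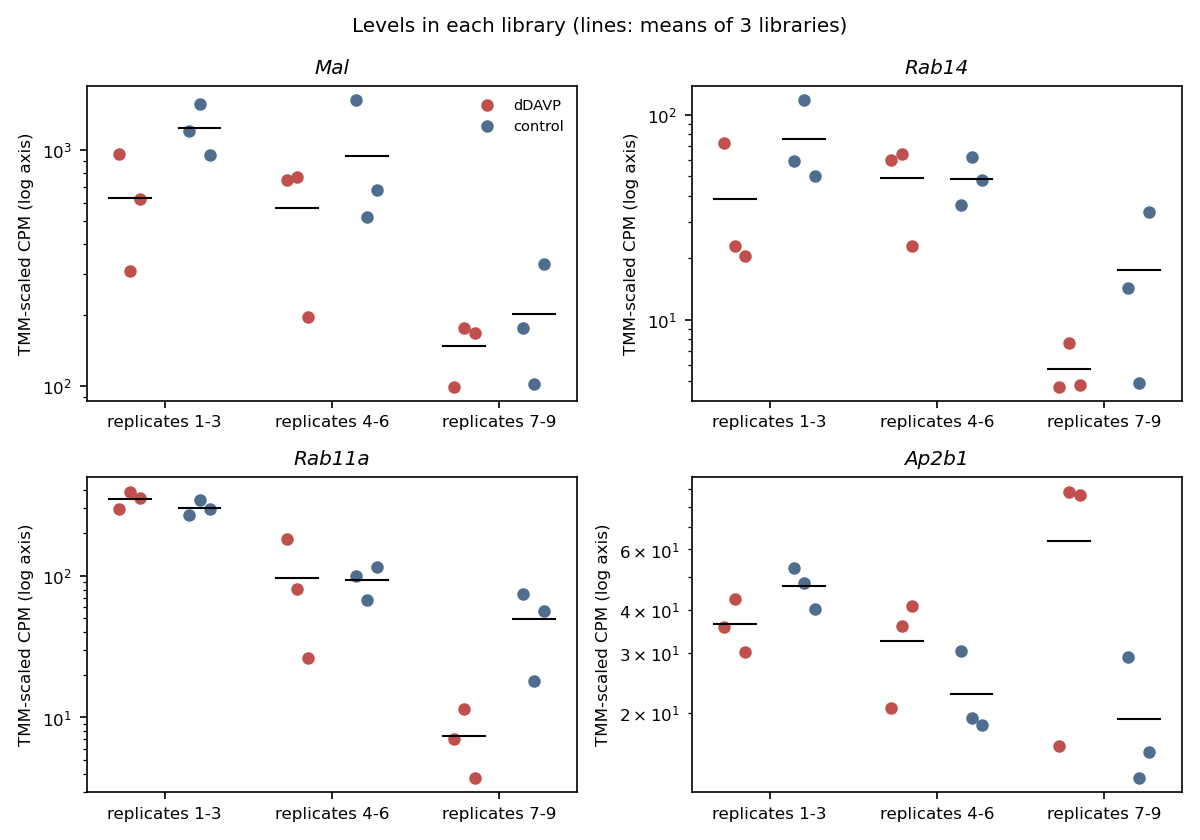
TMM-scaled CPM (log axis) of Mal, Rab14, Rab11a and Ap2b1 in each library, by replicates 1 to 3, 4 to 6 and 7 to 9, with dDAVP points left of control points and a line at the mean of 3 libraries. The groups are separate only for Rab11a in replicates 7 to 9, where dDAVP libraries have 3.74 to 11.4 CPM and control libraries 18.1 to 74.8 CPM.

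The 3 libraries of each group did not overlap within a set for few members. In replicates 1 to 3, dDAVP was above control for Stx4a, Snap23, Rab4a and Ezr (9.52% of the members, beside 7.11% of all genes) and below it for Stx7 (2.38% beside 6.93%). In replicates 4 to 6 it was above for Arf6 (2.38% beside 5.28%) and below for Vamp3 (2.38% beside 4.44%). In replicates 7 to 9 it was above for Sipa1l1 (2.38% beside 4.58%) and below for Stx4a and Rab11a (4.76% beside 4.05%). Directions in the later sets depended on the scaling: with library totals alone the median log2 fold change over all genes was -0.378 in replicates 4 to 6 and 0.543 in replicates 7 to 9, against -0.033 and -0.026 with TMM factors. Positive members then numbered 8 and 29 of 42, against 18 and 19 with TMM factors. The members' own medians were -0.412 and 0.413 with totals alone, against -0.095 and -0.19 with TMM factors.

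The levels of the trafficking genes differed widely between the sets of replicates, in both groups. The means of the 3 sets spanned a median of 2.069 on the log2 scale over the 42 members and 1.949 over all genes tested, so that the members were not set apart from other genes in this. The span was widest for Cltc, at 5.01, with set means of 319, 335 and 9.42 CPM in replicates 1 to 3, 4 to 6 and 7 to 9, and it was 4.56 for Vamp8, 4.53 for Anxa2, 4.48 for Hspa8 and 4.09 for Rab5a. Some genes ran the other way: Dnm2 averaged 11.5, 40.9 and 167 CPM, and Rab5c 8.19, 19.9 and 98.9 CPM, in the same order of sets. Replicates 7 to 9 were also unlike each other. Ap2a1 had 489.6, 30.8 and 44 CPM in dDAVP, against 19.9, 197 and 243 CPM in control, and Dnm2 had 323, 45.9 and 42.8 CPM in dDAVP, against 45.9, 291 and 255 CPM in control. High values of both genes were thus found in dDAVP 7, control 8 and control 9, that is in both groups.

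Levels ran with the GC content of the transcripts in replicates 1 to 3 and 7 to 9, to a degree that varied by library and was slight in control 7. For each library, the Spearman correlation between a gene's level relative to the mean of all libraries and its transcript GC content was computed over the 42 members and over the 9522 genes with a protein-coding transcript. Libraries of replicates 1 to 3 gave -0.44, -0.19 and -0.15 over the members in dDAVP, against -0.37, -0.48 and -0.34 in control. Libraries of replicates 4 to 6 gave -0.08, -0.22 and -0.39 in dDAVP, against 0.10, -0.38 and -0.13 in control. Libraries of replicates 7 to 9 gave 0.56, 0.35 and 0.43 in dDAVP, against 0.04, 0.61 and 0.22 in control. Over all genes, dDAVP 7 and control 8 had the highest values, 0.74 and 0.76, while control 7 had 0.11. The division by set did not hold for each library: dDAVP 6, of replicates 4 to 6, had -0.44 over all genes, beside -0.31 in dDAVP 2 and -0.25 in dDAVP 3. The ratio of replicates 7 to 9 over replicates 1 to 3 had a correlation with GC content of 0.44 over the members and 0.66 over all genes, and that of replicates 4 to 6 over replicates 1 to 3 had 0.12 over the members and 0.20 over all genes. These are descriptions: the points share libraries, and genes are not independent replicates. Transcript GC content was 42.3% in Rab5a and 54.7% in Rab5c, 39.5% in Rab11a and 48.1% in Rab11b, and 59.3% in Ap2a1, 57.2% in Dnm2 and 43.6% in Cltc. Not all members ran this way: Hspa8 (51.2%), Anxa2 (53.1%), Vamp8 (51.6%) and Arf6 (60.0%) had log2 ratios of -3.98, -3.91, -3.04 and -1.17 in replicates 7 to 9 over replicates 1 to 3. With each library's slope on GC content as a further term beside the set, 0 members passed adjustment and the log2 fold changes were -1.63 for Rab11fip2, -0.83 for Rab14 and -0.72 for Mal.

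**Figure D5:**
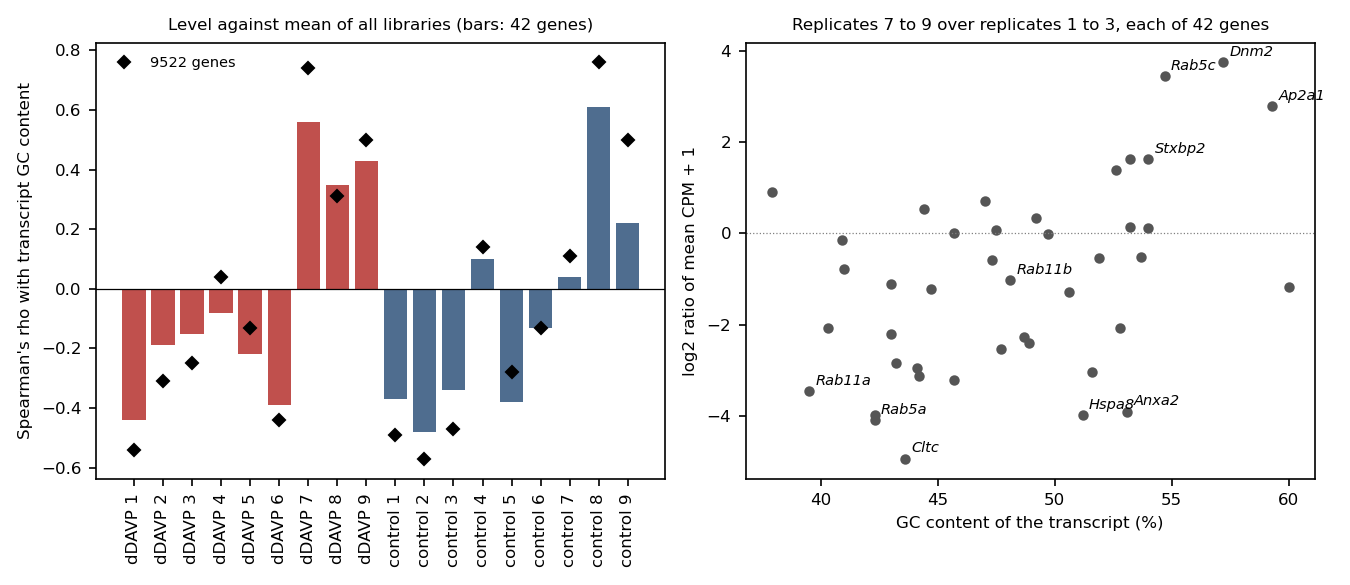
Left, Spearman correlation of each library's levels, relative to the mean of all libraries, with transcript GC content over the 42 genes (bars, red for dDAVP and blue for control) and over 9522 genes (diamonds). Right, log2 ratio of mean CPM + 1 in replicates 7 to 9 over replicates 1 to 3 against transcript GC content for each of the 42 genes; Rab5c, Dnm2 and Ap2a1 lie high on the right, and Rab11a, Rab5a and Cltc low on the left.

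Of 113 further SNARE, exocyst, Rab, endocytic, sorting, motor and annexin genes, 109 were tested with the set term. Of these, 57 had a positive log2 fold change (52.3%, beside 52.2% of all genes). By edgeR 0 passed adjustment in either direction (0.079% of all genes). At an unadjusted p under 0.05 there were 3 higher and 4 lower of the 109, where 6.03% of all genes passed, a share close to theirs. The genes below are those with the smallest p of each list. Nsf, the ATPase that takes SNARE complexes apart, averaged 8.23 ± 4.62 CPM in dDAVP and 3.54 ± 1.92 CPM in control libraries (log2 fold change 1.41, SE 0.46, adjusted p 0.734). Vps33b, a Munc18-like protein of the endosomal and lysosomal route, averaged 4.81 ± 5.21 CPM in dDAVP and 1.59 ± 1.94 CPM in control libraries (log2 fold change 1.80, SE 0.61, adjusted p 0.791). Among the remaining lists the gene with the smallest p was Rab10 (-1.14), Clta (-0.93), Snx1 (0.66), Dynll1 (-0.70) and Anxa1 (-1.01), each with an adjusted p of at least 0.815.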

How the data were processed

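RNA from 20 ng of input was sequenced as 50 base single-end reads in 9 dDAVP and 9 control libraries, and the labels' protocols describe both a low-input kit and a single-cell protocol. Reads were processed with STAR 2.4.0.1, SAMtools and HTSeq on mm10, per the submitters' processing notes; the annotation and the strand setting are not given in the sources used here, so genes overlapping an antisense gene are uncertain. The deposited raw counts per gene were tested, and the FPKM values deposited by the authors were used for levels between genes and, as log2(FPKM + 0.1) or log2(FPKM + 1), in limma, a scale that understates the changes of low genes. Counts were analysed in R 4.3.3 with edgeR 4.0.16 (TMM, filterByExpr, quasi-likelihood, adjusted p under 0.05 over all genes tested), with limma 3.58.1 and DESeq2 1.42.0 as alternatives; each of these tools was tested on simulated counts with known changes. Comparisons were fitted over 18 libraries without covariates or with the set of replicate numbers, within each set, and as an interaction. Other settings were DESeq2 size factors, library totals, no filter, a filter at 1 CPM, voom with and without sample weights, a replicate block, each library or set left out, and a GC covariate.

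A rule named members with an unadjusted p under 0.05 in either fit over 18 libraries or an adjusted p under 0.05 in any fit. It also named the highest FPKM of each role group, the paralog groups, and the 2 largest changes each way among members of at least 1 CPM. Values by library are printed for only some of these members, and group means, SDs or shares for the others. Rab4a, Rab5a, Rab5c, Arf6, Ap2a1, Dnm2, Cltc and others outside that rule were named after their values were seen. The members and lists were chosen with earlier results of these data known. Libraries with the same number deviated together from their group means (correlations of 0.398 to 0.926). This cannot show pairing, because libraries with the same number always lie in the same set. Once set means were removed the correlations ranged from -0.706 to 0.43, and no label says that equal numbers were cultured together. No pair of libraries was a duplicate (lowest chi-square per degree of freedom 71.6). The floor of 3 counts is 0.0283 to 0.135 CPM and covers counting error only. Windows of 50 bases and GC content came from GENCODE M21, and positions from RefSeq GRCm38.p6.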

Additional observations from a re-analysis of the deposited data

Results flagged for a closer look

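In 5 of 84 groups of 9 libraries that were looked at (42 genes in dDAVP and in control), 1 library stood far from the other 8, by a gap on the log2(CPM + 1) scale beyond Dixon's 95% critical value; chance alone gives about 1 in 20. Ap2a1 had 490 CPM in dDAVP 7, with 44 CPM in the next highest dDAVP library. Dnm2 had 323 CPM in dDAVP 7, with 51.4 CPM in the next. Stxbp2 had 305 CPM in dDAVP 7, with 113 CPM in the next, and among control libraries it had 413 CPM in control 8, with 131 CPM in the next. Rab11b was lowest in dDAVP 6, at 10.7 CPM, with 50.1 CPM in the next lowest dDAVP library. The cause was not tested.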

How the results depend on the processing

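The count of members past adjustment was 0 in all 32 alternative settings of the comparison without covariates, in 32 of 33 with the set term, in 12 of 13 in replicates 1 to 3, in 13 of 13 in replicates 4 to 6 and in replicates 7 to 9, and in 22 of 23 for the interaction. The exceptions were 1 member (Mal) with the set term under limma voom with sample weights and 1 member (Rab11a) for the interaction with DESeq2. In replicates 1 to 3, leaving out 1 library each gave 0 to 3 members, the 3 being without dDAVP 1. The cause was not tested. For most of these settings the share of all genes past adjustment is not given, so a count of 0 members is not a result particular to them. With the replicate block, 0 members passed adjustment in each comparison, and 0 without or with the set term (3.1% of all genes), 6 of 39 in replicates 1 to 3 (12.3% of all genes), 1 of 42 in replicates 4 to 6 (4.09%) and 1 of 42 in replicates 7 to 9 (2.15%) had an unadjusted p under 0.05. Of 25 named members, 6 (Vamp8, Stx7, Rab14, Rab11fip2, Myo6 and Mal) kept the sign of the log2 fold change with the set term in every setting tried, and 19 did not. All settings reuse the same libraries, so a kept sign is not independent support. The sign-changing values of dDAVP over control were as follows, and the cause was not tested. With DESeq2 size factors in edgeR it was Vamp2 -0.018. Under library totals alone it was Stxbp2 0.0048. For no filter it was Vamp2 -0.012. With a filter at 1 CPM it was Vamp2 -0.015. Under DESeq2 it was Vamp2 -0.016. For limma voom it was Vamp2 -0.013, Stxbp2 0.025, Hspa8 -0.023, Ezr -0.0020. With the replicate block it was Vamp2 -0.089, Stxbp2 0.039, Msn 0.0025. Under voom with sample weights it was Vamp3 0.30, Stx4a 0.47, Rab11a 0.15, Rab27b -0.022, Myo5a -6.36e-05, Myo5c -0.052, Ap2b1 -0.12. For FPKM with pseudocount 0.1 it was Vamp2 -0.081, Stxbp2 0.026, Hspa8 -0.017, Ezr -0.0051. With FPKM with pseudocount 1 it was Vamp2 -0.0032, Stxbp2 0.036, Hspa8 -0.016, Ezr -0.0019. Under leaving out replicates 1 to 3 it was Vamp2 -0.073, Rab11b -0.068, Anxa2 0.12, Ezr -0.18, Rdx 0.098. For leaving out replicates 4 to 6 it was Vamp3 0.49, Stx4a 0.25, Rab27b -0.80, Myo5b 0.0085, Anxa2 0.0063, Hspa8 -0.25. With leaving out replicates 7 to 9 it was Vamp2 -0.34, Stx3 0.32, Stxbp2 0.12, Rab7 -0.018, Rab11a 0.085, Rab11b -0.074, Rab27a -0.11. Under the GC slope as covariate it was Stxbp2 0.030, Hspa8 -0.015, Ezr -0.0030. For control 8 and dDAVP 7 left out it was Stxbp2 0.039, Rab7 -0.014, Anxa2 0.013. Leaving out 1 library each gave Vamp2 -0.17 to 0.14, Vamp3 -0.43 to 0.10, Stx3 -0.64 to 0.068, Stx4a -0.25 to 0.015, Stxbp2 -0.25 to 0.23, Rab7 -0.0019 to 0.18, Rab11b -0.0041 to 0.34, Rab27a -0.21 to 0.63, Rab27b -0.11 to 0.69, Anxa2 -0.24 to 0.080, Hspa8 -0.16 to 0.18, Ezr -0.11 to 0.10, Msn -0.23 to 0.14, Rdx -0.24 to 0.067. The GC slope and leaving out control 8 and dDAVP 7 were chosen after seeing the data. Mean levels moved by more than 1 SD with library totals alone for Vamp2 (14.42 CPM) and Ap2b1 (75.77 CPM) in dDAVP libraries, and 48 of 50 mean levels did not. The depth put 3 counts at 0.135 CPM or less, and in replicates 1 to 3 Rab27a had 0 or 1 counts in each library.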
